A study of Caenorhabditis elegans with 6 samples.

Results

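The genes described here are 10 cuticle collagen genes of *Caenorhabditis elegans* whose mutants have an altered body shape or surface. They are *dpy-2*, *dpy-3*, *dpy-7*, *dpy-8*, *dpy-9*, *dpy-10*, *rol-6*, *sqt-1*, *bli-1* and *bli-2*, taken by name from a table of 28641 genes. All 10 were in the table, and all 10 were among the 16225 genes with a mean of at least 1 FPKM (fragments per kilobase of transcript, scaled to the number of mapped fragments) that were tested. The table comes from RNA sequencing of whole worms at the L4 larval stage, fed *E. coli* OP50 at 20 °C without treatment. There were 3 libraries of *alh-4(-)* worms, which are Bristol N2 worms with the deletion allele *hj221* of the aldehyde dehydrogenase gene *alh-4*, and 3 libraries of wild type (WT) worms, Bristol N2. Each library came from a separate biological replicate of many synchronized worms crushed together, so a value is a mean over animals, and the labels give no age within L4. In bulk samples of this kind, fewer cells of a type and less RNA per cell cannot be told apart.

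The cuticle is the worm's exoskeleton. It consists largely of collagens that the epidermis, called hypodermis in the worm, secretes beneath the old cuticle before each moult. The collagen genes are switched on and off in waves within each larval stage, so that their mRNA levels depend strongly on how far an animal has moved between one moult and the next. The products of the 6 *dpy* genes listed here form the furrows that ring the body, and worms without them are short and fat ("dumpy"). *rol-6* and *sqt-1* encode collagens whose mutants roll around their long axis or are squat, and mutations of one modify the effects of the other. *bli-1* and *bli-2* encode collagens of the struts that join the layers of the adult cuticle, and their mutants have blisters.

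The members do not lie in one cluster. In the WBcel235 annotation, a different build from the ce10 assembly used by the authors, 6 lie on chromosome II, 3 on chromosome X and 1 on chromosome IV. *dpy-10* (WBGene00001072, chromosome II, 6710149 to 6712227, minus strand) and *dpy-2* (WBGene00001064, chromosome II, 6714292 to 6715971, plus strand) are neighbours that point away from each other, with 2064 bases and 3 non-coding RNA genes between them. *dpy-7* (WBGene00001069), the gene whose promoter is widely used to drive transgenes in the hypodermis, spans 7536467 to 7537792 on the minus strand of chromosome X and has 2 exons. The encoded proteins have between 210 (the shorter form of DPY-9) and 452 (DPY-8) residues in the furrow group, 348 for ROL-6, 324 for SQT-1, 311 for BLI-2 and 948 for BLI-1, the longest of the 10.

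Other genes overlap *dpy-10*, *dpy-8*, *bli-1* and *bli-2* in that annotation, and reads of overlapping genes cannot be separated where a library does not record the strand. *dpy-10* shares 780 of its 1593 exon bases with T14B4.19 on the same strand, so a record of the strand would not separate these 2 genes. No FPKM is listed under the name T14B4.19, and its part in the *dpy-10* values was not tested. *dpy-8* shares 109 of 1513 exon bases with C31H2.14 on the opposite strand, which had at most 6.27 FPKM in any library. *bli-1* shares 7 of 3010 exon bases with *dph-2*, and *bli-2* overlaps *zyg-1* without sharing exon bases.

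The deleted gene followed the labels: *alh-4* had 33.7, 24.6 and 35.2 FPKM in *alh-4(-)* replicates 1, 2 and 3, against 352, 291 and 336 FPKM in WT replicates 1, 2 and 3. The sum of FPKM was nearly equal in all 6 libraries, but the number of reads is unknown. Genes above 0 numbered 17623 in *alh-4(-)* replicate 1 and 19102 in WT replicate 1, against 21058 to 22670 in the other libraries. In *alh-4(-)* replicate 1, 102 genes were at 0 although every other library had over 5 FPKM. There were 39 such genes in WT replicate 1 and at most 10 in any other library. The part of such missing signal in the low values below was not tested. Markers of the tissues of a whole worm were present, although the neuron marker *unc-119* was under 1 FPKM in every library. The 4 epidermis markers (*lin-26*, *elt-3*, *elt-1* and *che-14*) were above 0 in every library, and their sum ran from 319 to 641 FPKM in *alh-4(-)* worms and from 418 to 537 FPKM in WT worms. The sum was lowest in *alh-4(-)* replicate 1, at 319 FPKM, and the part of this difference in the values below was not tested.

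All 6 furrow collagens had their highest value in WT replicate 1 and their next highest in WT replicate 3. Their summed level was 34.1, 60.7 and 57.6 FPKM in *alh-4(-)* replicates 1, 2 and 3, against 1216, 52.5 and 210.2 FPKM in WT replicates 1, 2 and 3. The sum in WT replicate 2 thus lay within the range of the *alh-4(-)* libraries, and only WT replicates 1 and 3 lay above it. The plot of each gene by library shows this order, with the WT points of the furrow genes spread far apart.

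**Figure D1:**
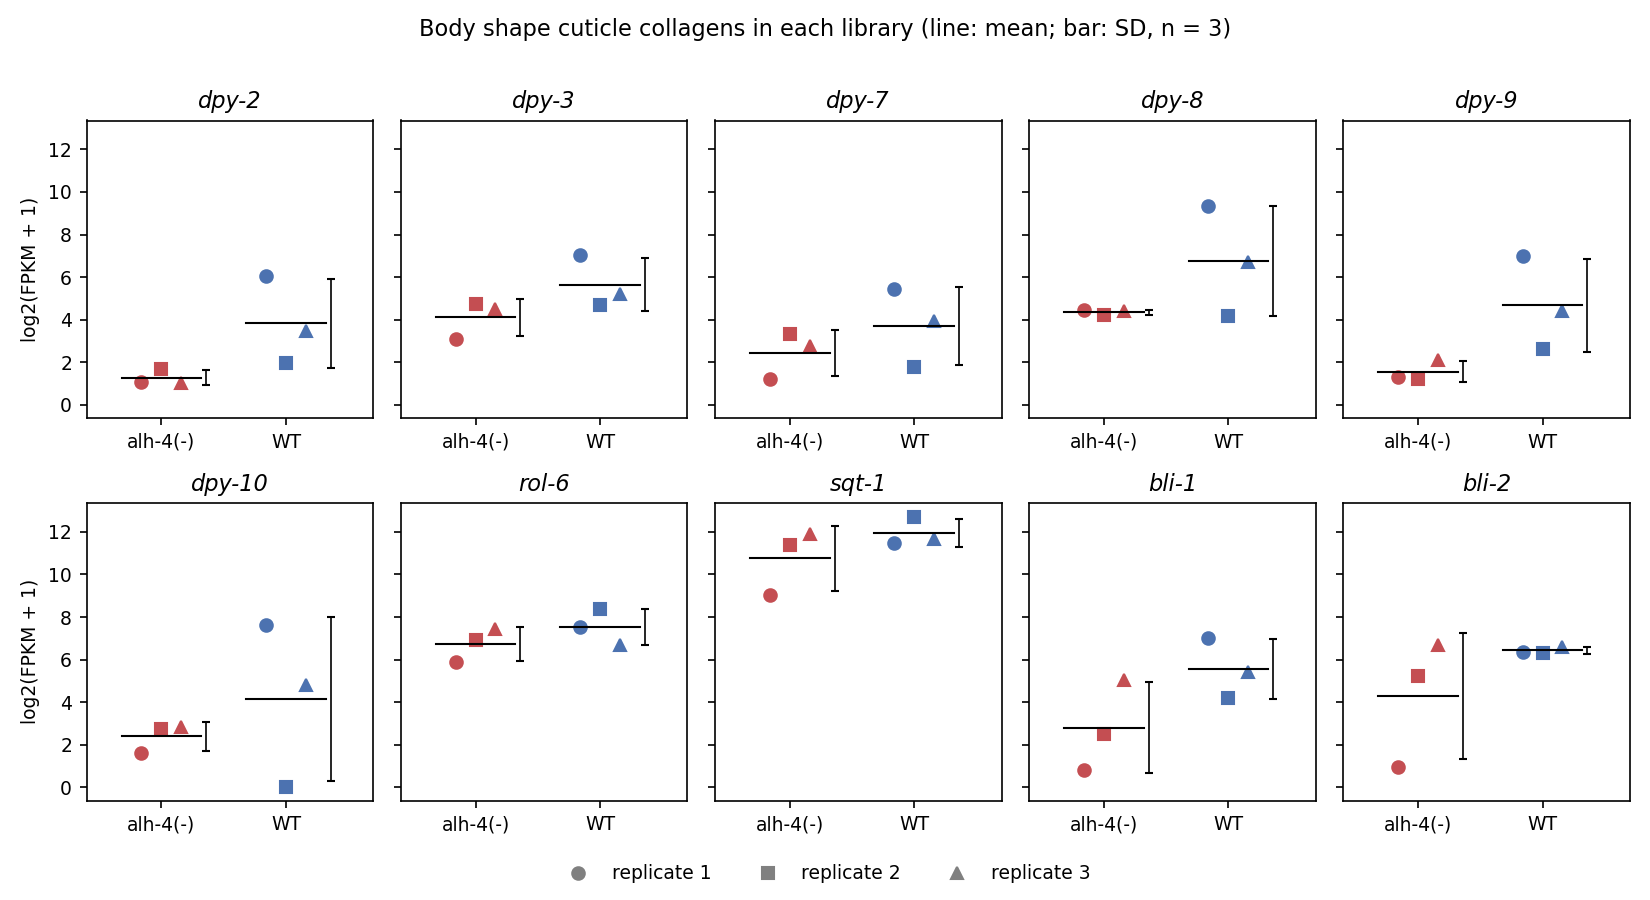
Level of each of the 10 collagen genes, as log2(FPKM + 1), in the 3 *alh-4(-)* libraries (red, left) and the 3 WT libraries (blue, right). Marker shapes give the replicate number, lines the genotype mean and bars the SD (n = 3). WT replicate 1 is the highest library for the 6 furrow genes and for *bli-1*, and *alh-4(-)* replicate 1 is the lowest for *dpy-3*, *dpy-7*, *rol-6*, *sqt-1*, *bli-1* and *bli-2*.

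*dpy-8* had the highest value of any furrow collagen, in WT replicate 1, although *dpy-3* stood above it in *alh-4(-)* replicates 2 and 3 and in WT replicate 2. *dpy-8* had 20.5, 17.3 and 20.2 FPKM in *alh-4(-)* worms, against 656, 17.2 and 103 FPKM in WT worms. The *alh-4(-)* libraries were within 1.19-fold of each other, while the WT libraries differed by 38.2-fold, and WT replicate 2 was the lowest library of all. Its log2 fold change on the log2(FPKM + 1) scale was -2.40 (standard error 1.13), with an unadjusted p of 0.0711 from limma.

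*dpy-9* and *dpy-2* were the furrow genes with no overlap between the genotypes. *dpy-9* had 1.45, 1.33 and 3.302 FPKM in *alh-4(-)* worms, against 124, 5.20 and 20.3 FPKM in WT worms. Its log2 fold change, -3.13 (standard error 0.998), was the most negative of the 10, with an unadjusted p of 0.0159 and an adjusted p of 0.728 from limma. *dpy-2* had 1.12, 2.189 and 1.03 FPKM in *alh-4(-)* worms, against 65.3, 2.85 and 9.99 FPKM in WT worms. Its log2 fold change was -2.56 (standard error 0.95), with an unadjusted p of 0.0305 and an adjusted p of 0.904 from limma. In both genes the lowest WT library stood just above the highest *alh-4(-)* library, and the two-sided exact permutation p was 0.1, the smallest that 3 libraries against 3 can give.

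*dpy-10* was listed at 0 in WT replicate 2, although only *sqt-1* and *dpy-8* of the 10 genes were more abundant in WT replicate 1. Its values were 2.05, 5.66 and 6.04 FPKM in *alh-4(-)* worms, against 198, 0 and 27.3 FPKM in WT worms. The neighbouring *dpy-2* had 2.85 FPKM in the library where *dpy-10* was at 0. With WT libraries both above and below all 3 *alh-4(-)* libraries, the log2 fold change of *dpy-10* was -1.76 with a standard error of 1.71. With a library at 0, this value depends on the 1 FPKM added before the logarithm.

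*dpy-3* and *dpy-7* also overlapped between the genotypes. *dpy-3* had 7.62, 25.3 and 21.3 FPKM in *alh-4(-)* worms, against 131, 24.9 and 35.9 FPKM in WT worms. Its genotypes overlapped only through *alh-4(-)* replicate 2 and WT replicate 2, and its log2 fold change was -1.55 (standard error 0.68, unadjusted p = 0.0575 from limma). *dpy-7* had 1.31, 8.89 and 5.74 FPKM in *alh-4(-)* worms, against 41.7, 2.39 and 14.2 FPKM in WT worms. Here WT replicate 2 was below 2 of the 3 *alh-4(-)* libraries, and the log2 fold change was -1.28 (standard error 0.96, unadjusted p = 0.222 from limma).

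WT replicate 1 held between 68.3% (*dpy-3*) and 87.9% (*dpy-10*) of the summed WT signal of each furrow gene. It stood above the next highest library by 2.93-fold for *dpy-7*, 3.65-fold for *dpy-3*, 6.12-fold for *dpy-9*, 6.40-fold for *dpy-8*, 6.54-fold for *dpy-2* and 7.25-fold for *dpy-10*. Over all 16225 tested genes, WT replicate 1 was the highest library in 12.1%, and it stood over 2-fold above every other library in 1.51%. Of the 10 members, 7 were highest there, and the same 7 stood over 2-fold above the rest, namely the 6 furrow genes and *bli-1*. The SD of log2(FPKM + 1) between the 3 WT libraries was between 1.24 (*dpy-3*) and 3.86 (*dpy-10*) in the furrow genes, against a median of 0.37 over all tested genes. A WT SD as large as that of *dpy-3* was found in 4.97% of tested genes, and 0.0247% had one as large as that of *dpy-10*. Between the *alh-4(-)* libraries the SD of the furrow genes ran from 0.13 (*dpy-8*) to 1.09 (*dpy-7*), around a median of 0.41 over all tested genes.

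*sqt-1* was the most abundant of the 10 genes in every library, and *rol-6* followed it in 4 of the 6. Neither was highest in WT replicate 1. *sqt-1* had 521, 2649.8 and 3843 FPKM in *alh-4(-)* worms, against 2877, 6770.2 and 3234 FPKM in WT worms. *rol-6* had 57.8, 118 and 171 FPKM in *alh-4(-)* worms, against 184, 334 and 101 FPKM in WT worms. Both genes were highest in WT replicate 2, the library in which the furrow genes were low, and lowest in *alh-4(-)* replicate 1. In *sqt-1* as in *rol-6* the genotypes overlapped, and the differences did not pass the test. The log2 fold change was -1.19 (standard error 0.74, unadjusted p = 0.150 from limma) for *sqt-1* and -0.79 (standard error 0.53, unadjusted p = 0.177 from limma) for *rol-6*. Both values depend on single libraries. Without *alh-4(-)* replicate 1 they were -0.32 for *sqt-1* and -0.37 for *rol-6*. Without WT replicate 2 they were -0.81 for *sqt-1* and -0.37 for *rol-6*.

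The strut collagens *bli-1* and *bli-2* were set apart by *alh-4(-)* replicate 1, in which both were under 1 FPKM. *bli-2* had 0.934, 36.02 and 101 FPKM in *alh-4(-)* worms, against 80.6, 79.1 and 96.5 FPKM in WT worms. The WT libraries were thus within 1.22-fold of each other, the *alh-4(-)* libraries differed by 108-fold, and *alh-4(-)* replicate 3 was the highest library of the 6. The log2 fold change of *bli-2* was -2.15 with a standard error of 1.299 (unadjusted p = 0.141 from limma), and -0.49 without *alh-4(-)* replicate 1. *bli-1* had 0.75, 4.74 and 32.0 FPKM in *alh-4(-)* worms, against 128, 17.3 and 41.2 FPKM in WT worms. Its lowest WT library lay below *alh-4(-)* replicate 3, so the genotypes overlapped, and the log2 fold change was -2.75 (standard error 1.13, unadjusted p = 0.0441 and adjusted p = 0.979 from limma). Between the *alh-4(-)* libraries the SD on the log2 scale was 2.97 for *bli-2* and 2.13 for *bli-1*, and 0.253% and 1.61% of tested genes had one as large. The members thus followed different libraries: *alh-4(-)* replicate 1 was the lowest of the 6 libraries for 6 of the 10, namely *dpy-3*, *dpy-7*, *rol-6*, *sqt-1*, *bli-1* and *bli-2*, and for 34.5% of all tested genes.

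The order of the members by level, which FPKM allows because it is divided by transcript length, also moved with the library. In WT replicate 1 *dpy-8* and *dpy-10* had ranks 2 and 3 after *sqt-1*, and *bli-2* had rank 8. In *alh-4(-)* replicates 2 and 3 *bli-2* had rank 3, and *dpy-8* had ranks 5 and 6. In *alh-4(-)* replicate 1 *bli-2* and *bli-1* were the lowest of the 10.

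**Figure D2:**
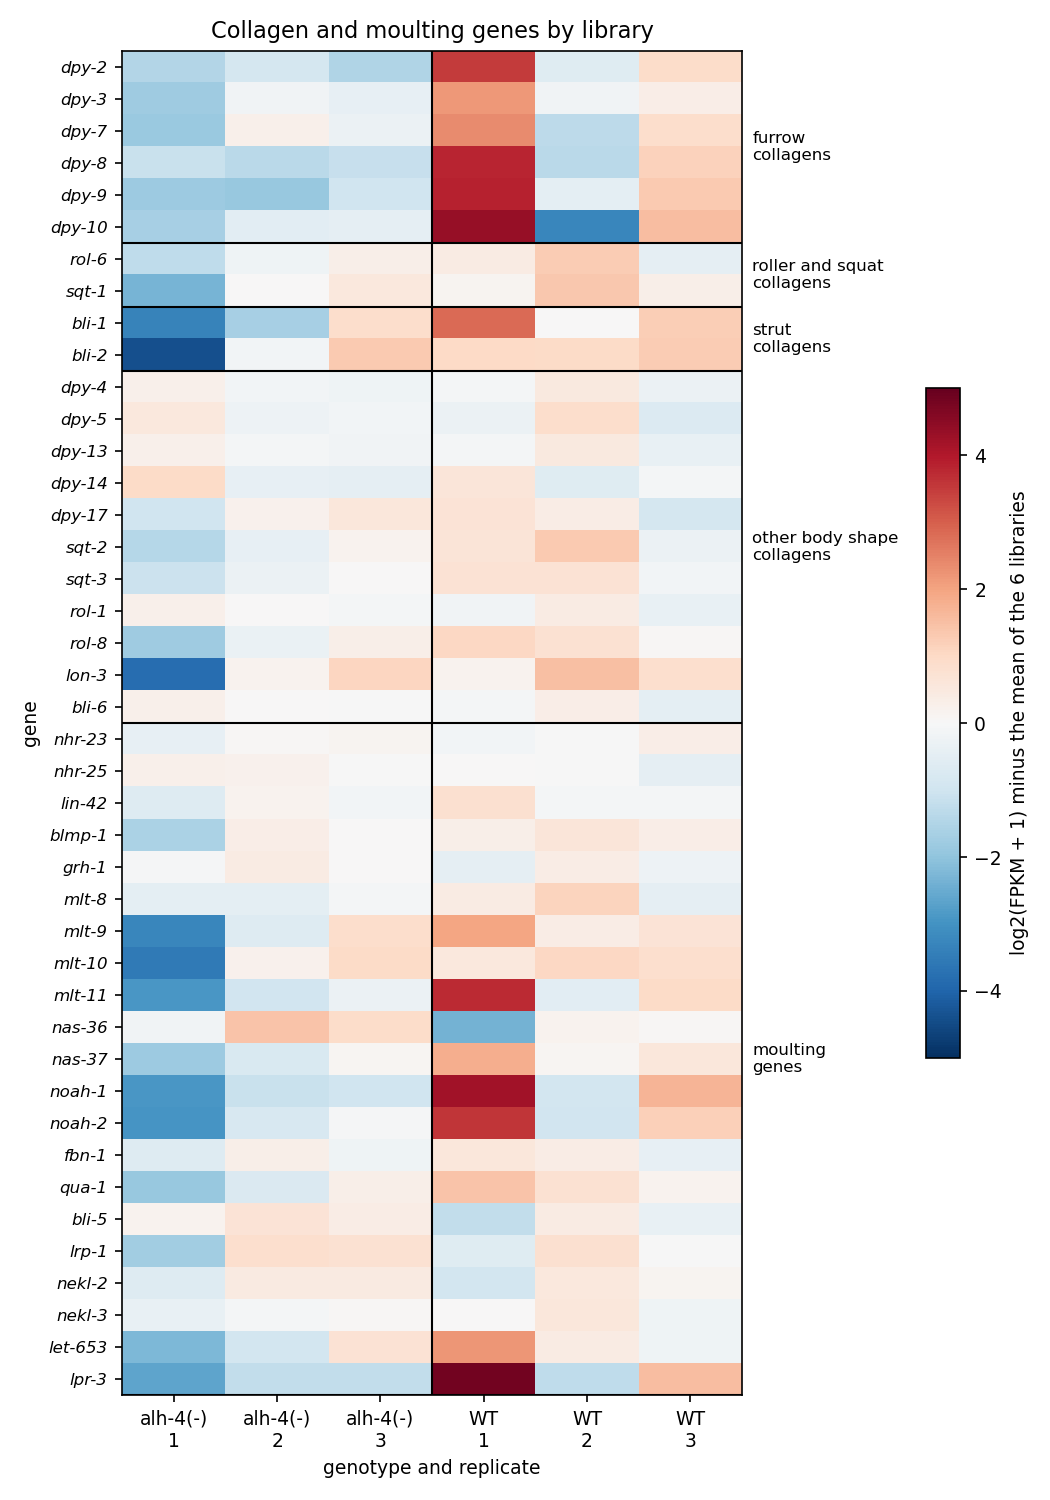
Level of each gene in each library, as log2(FPKM + 1) minus that gene's mean over the 6 libraries (red above, blue below), for the 10 collagen genes, 11 other body shape collagens and 21 moulting genes. Columns are the *alh-4(-)* replicates 1 to 3 (left) and the WT replicates 1 to 3 (right). The furrow genes are red in WT replicate 1, and the strut genes are dark blue in *alh-4(-)* replicate 1, as are *lon-3*, *mlt-9* and *mlt-10*.

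Set against each other as genotypes, 3 of the 10 members, *dpy-2*, *dpy-9* and *bli-1*, were lower in *alh-4(-)* worms at the study's thresholds (a fold over 2 with p under 0.05 before adjustment, here from limma), and 1.37% of all tested genes were. None was higher (0 of 10, and 1.54% of all tested genes). With limma p-values adjusted over the whole table, 0 of the 10 were under 0.05, against 0.142% of all tested genes, and the lowest adjusted p was 0.728 (*dpy-9*). At an unadjusted p under 0.05 from limma with no limit on the fold, the same 3 members passed, as did 806 of the 16225 tested genes. The *alh-4(-)* libraries all lay below the WT libraries in 2 of the 10 (*dpy-2* and *dpy-9*) and in 3.25% of all tested genes. The fitted log2 fold change was below 0 in each of the 10, from -3.13 (*dpy-9*) to -0.79 (*rol-6*), with a median of -1.96, against a median of 0.07 over all tested genes. The members were chosen with earlier results of these data known, so these counts describe them and test nothing about the group.

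These counts turned on single libraries. Without WT replicate 1, 2 of the 10 (*dpy-2* and *dpy-9*) were called lower, against 1.13% of the genes then tested, and the median log2 fold change of the members was -1.26. Its effect was largest for the furrow genes, whose median log2 fold change was -2.08 with all libraries and -0.97 without WT replicate 1. *dpy-9* then had a log2 fold change of -1.98 (unadjusted p = 0.0188 from limma) and *dpy-2* one of -1.44 (unadjusted p = 0.0445 from limma), while *dpy-10* stood at -0.02. Without both replicate 1 libraries, an alternative chosen after seeing the data, only *dpy-9* was called lower, against 1.45% of the genes then tested, and the median was -0.54. In that fit *dpy-7* and *dpy-10* turned to log2 fold changes of 0.18 and 0.37, and the strut genes stood at -1.02 (*bli-1*) and -0.52 (*bli-2*). Without WT replicate 2, in contrast, the 6 furrow genes and *bli-1* were called lower (7 of 10, and 1.48% of the genes then tested). The same 7 lay below WT without overlap, as did 8.03% of the genes then tested. Without WT replicate 3 only *dpy-9* was called lower, against 1.14% of the genes then tested, and the same holds without *alh-4(-)* replicate 1, against 1.23%. Without *alh-4(-)* replicate 3, 4 were called lower (*dpy-9*, *sqt-1*, *bli-1* and *bli-2*), against 1.86% of the genes then tested, and 5 did not overlap, against 6.45%. With 2 libraries against 3, fewer values have to be in order for the genotypes not to overlap, so these counts are not set against those of all 6 libraries.

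**Figure D3:**
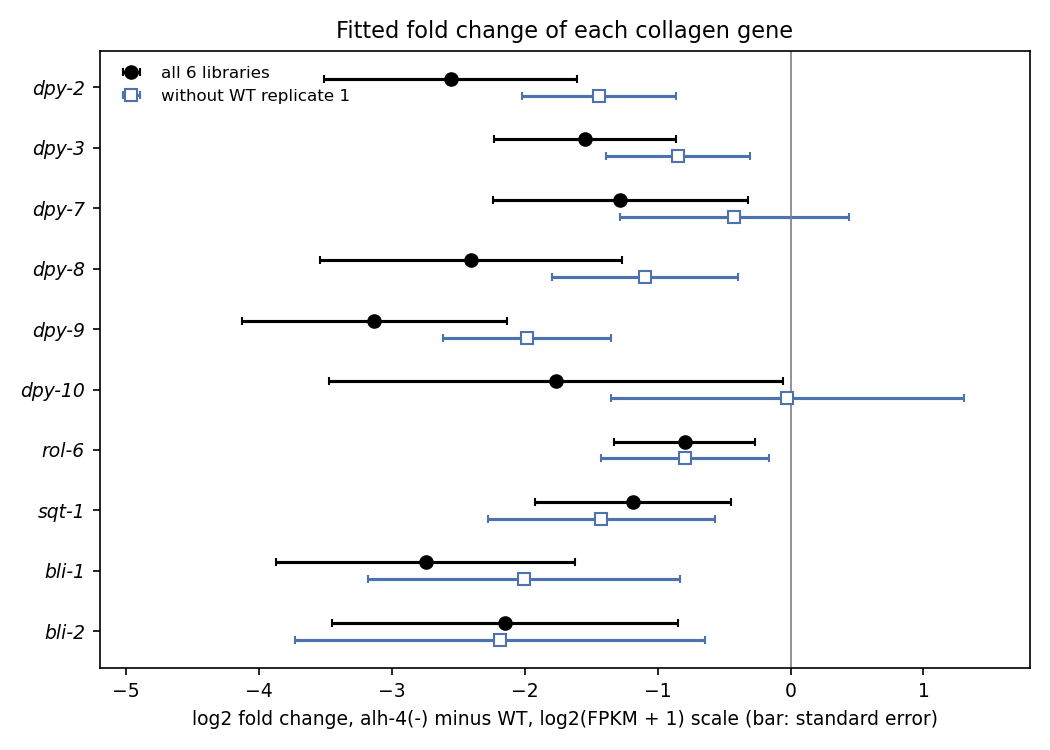
Fitted log2 fold change of each collagen gene, *alh-4(-)* minus WT, on the log2(FPKM + 1) scale, with its standard error, from all 6 libraries (black circles) and without WT replicate 1 (open blue squares). Every point lies below 0; without WT replicate 1 the furrow genes move towards 0, as for *dpy-2* (-1.44, against -2.56 with all libraries) and *dpy-10* (-0.02, against -1.76), while *rol-6* and *bli-2* stand at -0.80 and -2.187. The omission of *alh-4(-)* replicate 1, not drawn here, gave -0.37 for *rol-6* and -0.49 for *bli-2*.

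Other collagens of body shape did not share one pattern with the members. Of 11 such genes (*dpy-4*, *dpy-5*, *dpy-13*, *dpy-14*, *dpy-17*, *sqt-2*, *sqt-3*, *rol-1*, *rol-8*, *lon-3* and *bli-6*), 0 were called in either direction, with a median log2 fold change of -0.06, and 1 (*sqt-3*) had an unadjusted p under 0.05 from limma. None of them stood over 2-fold above every other library in WT replicate 1. *dpy-4*, the most abundant of these collagens, had 59251, 44954 and 42753 FPKM in *alh-4(-)* worms, against 46086, 69341 and 40728 FPKM in WT worms, levels far above those of any member. The largest negative value was that of *lon-3*, a collagen gene whose mutants are long. It had 3.26, 67.1 and 123 FPKM in *alh-4(-)* worms, against 67.2, 169.5 and 107 FPKM in WT worms, and like *bli-2* it was by far lowest in *alh-4(-)* replicate 1 (log2 fold change -1.71, standard error 1.17). *rol-8* and *sqt-2* had log2 fold changes of -1.23 and -1.10, and both were lowest in *alh-4(-)* replicate 1.

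The genes that modify and join collagen chains had smaller fitted differences than most members. Of 9 (*dpy-18* and *phy-2* for prolyl 4-hydroxylase, *pdi-2*, *bli-4*, *dpy-31*, *bli-3*, *mlt-7*, *tsp-15* and *dpy-11*), 0 were called, and the median log2 fold change was -0.23. *mlt-7*, a peroxidase that cross-links the cuticle, had the largest fitted difference, with 334, 388 and 656 FPKM in *alh-4(-)* worms, against 1552, 599 and 379.8 FPKM in WT worms (log2 fold change -0.68, standard error 0.52). The log2 fold change of *mlt-7* was -0.12 without WT replicate 1 and 0.08 without both replicate 1 libraries. *pdi-2*, a protein disulfide isomerase that is also a subunit of prolyl 4-hydroxylase, had no overlap between the genotypes, with a log2 fold change of -0.62 (standard error 0.24, unadjusted p = 0.0370 from limma). *bli-3*, the dual oxidase that supplies the cross-linking reaction, had a log2 fold change of 0.55 (standard error 0.37).

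Some genes of the moult cycle shared the high level of the furrow genes in WT replicate 1, and others did not. Of 21 listed moulting genes, 5 were called lower in *alh-4(-)* worms (*lpr-3*, *noah-1*, *mlt-11*, *nas-37* and *qua-1*) and 0 higher. Over all tested genes 1.37% were called lower and 1.54% higher. Without WT replicate 1, 0 of the 21 were called lower, against 1.13% of the genes then tested. The list was chosen with earlier results of these data known, so these counts are descriptive. *noah-1*, which encodes a protein of the matrix laid down before the cuticle, had 8.69, 32.7 and 35.0 FPKM in *alh-4(-)* worms, against 1326, 37.4 and 236 FPKM in WT worms. The order of its WT libraries was that of the 6 furrow genes and of *bli-1*. *lpr-3*, a lipocalin of the same matrix, was listed at 0 in *alh-4(-)* replicate 1 and had 1.63 and 1.62 FPKM in the other *alh-4(-)* libraries, against 175, 1.58 and 17.3 FPKM in WT worms. *mlt-11*, a protease inhibitor needed for moulting, had 7.93, 33.1 and 54.4 FPKM in *alh-4(-)* worms, against 891, 45.4 and 130.1 FPKM in WT worms.

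Other genes of that list went with the strut genes or with neither group. *mlt-10* had 174, 2371 and 3993 FPKM in *alh-4(-)* worms, against 2975, 4181 and 3649 FPKM in WT worms, low in *alh-4(-)* replicate 1 as *bli-2* was. *nhr-23*, the nuclear receptor that drives the moult cycle, had 149.96, 206 and 220.4 FPKM in *alh-4(-)* worms, against 179.5, 197 and 252 FPKM in WT worms, and thus stayed within a narrow range in all 6 libraries. *nas-36*, an astacin protease of moulting, had 137, 422 and 298 FPKM in *alh-4(-)* worms, against 29.3, 175 and 161 FPKM in WT worms, so that WT replicate 1 was here the lowest library. Of the adult cuticle collagens, *col-7* had 14.8, 2.44 and 23.4 FPKM in *alh-4(-)* worms, against 312, 11.3 and 12.3 FPKM in WT worms, and *col-19* had 435, 269 and 270.4 FPKM in *alh-4(-)* worms, against 804, 185 and 291 FPKM in WT worms. Both were highest in WT replicate 1, as the furrow genes were. The paper states that the worms of both genotypes were grown to L4, and the part of any difference in age within that stage was not tested.

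**Figure D4:**
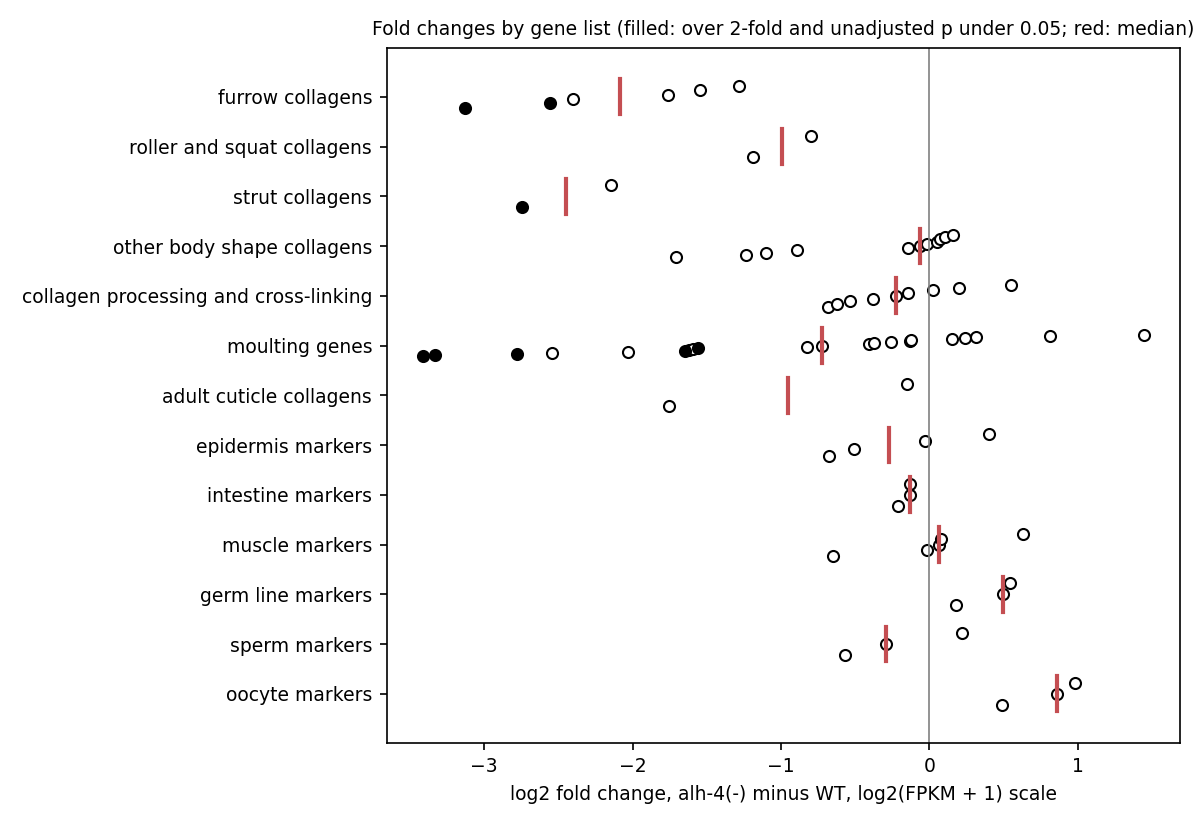
Log2 fold change, *alh-4(-)* minus WT on the log2(FPKM + 1) scale, of each tested gene in the collagen, moulting and tissue marker lists, with the median of each list in red. Filled points passed both thresholds, a fold over 2 and p under 0.05 before adjustment from limma: 3 of the 10 collagen genes described here, *dpy-9*, *dpy-2* and *bli-1*, and 5 moulting genes. The medians are -2.08 for the furrow genes, -0.99 for *rol-6* and *sqt-1*, -2.45 for the strut genes and -0.06 for other body shape collagens.

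Beside these values, the markers of other tissues gave the following levels. Oocyte markers (*oma-1*, *rme-2* and *puf-5*), all above 0 in every library, summed to between 764 and 856 FPKM in *alh-4(-)* worms and between 454 and 653 FPKM in WT worms. All 3 lay above WT without overlap, as did 968 of the 16225 tested genes. For *rme-2* the margin was small, with 484 FPKM in *alh-4(-)* replicate 3 and 481 FPKM in WT replicate 3. Sperm markers (*spe-9*, *spe-11* and *spe-38*), genes of the sperm that hermaphrodites make as larvae, summed to between 222 and 259 FPKM in *alh-4(-)* worms and between 184 and 228 FPKM in WT worms. Intestine markers summed to between 633 and 988 FPKM in *alh-4(-)* worms and between 793 and 1120.2 FPKM in WT worms. Muscle markers summed to between 9722 and 10451 FPKM in *alh-4(-)* worms and between 7726 and 13635 FPKM in WT worms, with the highest sum in WT replicate 1. For germ line markers the sums were 1257 to 1417 FPKM and 944 to 1490 FPKM, and for neuron markers 8.51 to 11.8 FPKM and 9.12 to 10.2 FPKM, in the same order of genotypes. The part of any of these tissues in the collagen values was not tested.

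Among all other tested genes, those whose profile over the 6 libraries lay nearest to the mean profile of the furrow genes were F59B10.5, F18C5.5, K08B12.1, T06G6.6 and *wrt-2*, the last a hedgehog-related gene. Likeness was measured as the root mean square distance between log2(FPKM + 1) profiles centred on their means, and it was 0.22 for F59B10.5 and 0.37 for *wrt-2*. The furrow genes themselves lay between 0.40 (*dpy-2* and *dpy-8*) and 0.98 (*dpy-10*) from their own mean. *wrt-2* had 1.35, 1.32 and 3.83 FPKM in *alh-4(-)* worms, against 64.4, 2.61 and 11.03 FPKM in WT worms. Nearest to the mean profile of *bli-1* and *bli-2* were C14F11.6, the collagen gene *col-110*, *mlt-9*, and the hedgehog-related genes *grl-7* and *grl-5*, at distances from 0.16 to 0.44. *col-110* had 9.73, 155 and 396 FPKM in *alh-4(-)* worms, against 529, 322 and 449.8 FPKM in WT worms, and so resembled *bli-2* in its low value in *alh-4(-)* replicate 1.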

How the data were processed

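Reads from whole L4 worms were mapped by the authors to ce10, with the Illumina iGenome annotation, and the deposited table holds FPKM per gene for each library, without pooling. The submitters' processing notes name bcl2fastq 2.19, Trimmomatic 0.36, HISAT2 2.1.0, SAMtools 1.3 and StringTie 1.3.3. Libraries were made by Smart-seq2, which does not record the strand. FPKM is divided by transcript length and mapped fragments. Ratios of low values between libraries showed no common step of single reads, so depth is unknown and no counting interval is given.

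FPKM values were transformed to log2(FPKM + 1). Genes averaging at least 1 FPKM over the 6 libraries (16225) entered a limma 3.58.1 fit in R 4.3.3 (eBayes with a mean-variance trend) of *alh-4(-)* against WT, and p-values were adjusted by the Benjamini-Hochberg method over all of them. On this scale the difference of a low gene is understated. The fit was tested on simulated data. Single genes were also compared by a two-sided exact permutation test. Tables and figures were made with Python 3.11.15, pandas 2.3.3 and Matplotlib 3.10.9.

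The members and gene lists were chosen with earlier results of these data known. Named genes are the members, *alh-4*, up to 3 genes of each other collagen or moulting list by largest log2 fold change, the genes called in these lists, and the 5 nearest to each profile. *dpy-4*, *sqt-3*, *mlt-10*, *nhr-23* and *nas-36* were added with their values known. Gene positions are from the Ensembl annotation of WBcel235, whose symbols matched all 10 members.

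The alternatives were another pseudocount (0.1), another filter on low values (none, or an average of 10 FPKM), other scalings (by upper quartile or by quantiles), other variance models (no trend, or array quality weights), a block for the replicate number, the omission of each library, the ratio of mean FPKM, and the omission of both replicate 1 libraries.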

Additional observations from a re-analysis of the deposited data

How the results depend on the processing

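The number of members called lower was 3 of 10, against 1.37% of all tested genes. With no filter on low values it was 1, against 0.541% of the genes then tested. Without both replicate 1 libraries (added after the data were seen) it was 1, against 1.45%. When any single library was omitted it was between 1 and 7, against between 1.13% and 1.98%. With a pseudocount of 0.1 or with no trend, *bli-1* no longer passed both thresholds (unadjusted p = 0.0519 and 0.0531 from limma). With scaling by quantiles or by upper quartile, *dpy-3* passed as well (unadjusted p = 0.0372 and 0.0432 from limma). Beyond the main fit, the share over all genes was computed only for the omissions and the fit without the filter. No number called lower is therefore given for the other fits. The fit without the filter differs in holding more low genes. The number without overlap between the genotypes was 2, against 3.25% of all tested genes below WT without overlap. With each library left out it was between 2 and 7, against between 6.44% and 8.03% of the genes then tested. Fewer values have to be in order in those fits, so this range does not measure a change from the count of all 6 libraries. The median log2 fold change of the members, -1.96, was between -2.83 and -1.21 with each library left out and -0.54 without both replicate 1 libraries. In that last fit *dpy-7* (0.18) and *dpy-10* (0.37) changed direction, and the cause was not tested. The number of members with an adjusted p under 0.05 was 0 in each alternative that gives a p. With array quality weights *dpy-8* passed both thresholds beside *dpy-2* and *dpy-9* (unadjusted p = 0.0351 from limma for *dpy-8*). *bli-1* then did not pass (log2 fold change -1.27, unadjusted p = 0.249 from limma), and the median of the members was -1.18. The weights gave -0.81 for *dpy-7*, -0.31 for *sqt-1*, -0.27 for *rol-6* and -0.38 for *bli-2*. The log2 ratio of mean FPKM, which has no test, was -4.17 for *dpy-2*, -3.74 for *dpy-8*, -4.03 for *dpy-10* and -0.89 for *bli-2*. With 0.1 FPKM added in place of 1, *dpy-10* stood at -0.94. Same-numbered libraries of both genotypes deviated together by correlations of 0.31, 0.28 and 0.00 for replicates 1, 2 and 3. Between the genotypes, libraries of different numbers gave correlations from -0.31 to 0.17. With 0.00 for replicate 3, the numbers were not taken as pairs. With the replicate number as a block, 3 members were called lower and the median log2 fold change was -1.96, with *dpy-8* (unadjusted p = 0.0492 from limma) in place of *bli-1* (unadjusted p = 0.0631). The depth of the libraries is unknown, so values of a few FPKM, such as those of *dpy-2* and *dpy-9* in *alh-4(-)* worms, have no counting error attached.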
